A study of Bos taurus with 6 samples.

Results

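The table of genes held 61 genes whose symbols begin with EIF and a digit, PABPC, PABPN or PAIP, out of 47249 genes in all. They are the translation initiation factors, the kinases and binding proteins named after them, the poly(A) binding proteins (PABPs) and the PABP interacting proteins. The rule used the symbols alone, although it was drawn up with earlier results of these data known. Their 157 entries in the table of transcripts were taken from 108527 entries.

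Initiation on most mRNAs begins at the cap, which is bound by eIF4E together with the scaffold eIF4G and the RNA helicase eIF4A, while PABP on the poly(A) tail binds the same scaffold. The small ribosomal subunit arrives with eIF1, eIF1A, eIF3, eIF5 and eIF2, which carries the initiator tRNA and is recharged with GTP by eIF2B. Control is exerted by eIF4E binding proteins, which compete with eIF4G, and by kinases that phosphorylate the alpha subunit of eIF2. Male germ cells are known for storing mRNAs that are translated days after their transcription, when the nucleus of the spermatid has become silent.

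The samples were testes of untreated Wandong cattle, a Chinese beef breed, with 3 calves aged 3 months as the immature group and 3 bulls aged 3 years as the mature group. Each animal gave 1 library of total RNA depleted of ribosomal RNA, and the comparison between the groups asks what changes as the testis matures. The level of a gene or transcript was given as FPKM (the number of sequenced fragments scaled to the length of the transcript and to the size of the library), so that levels can be compared between genes per length. The tables hold no counts, so the number of fragments behind a single value is unknown, although the paper lists the reads of each library. The summed FPKM over all genes ran from 587066 in calf 3 to 1098720 in calf 2.

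The library labelled calf 3 stood apart and went against its tissue label. Of the 8 markers of Sertoli cells, 7 were lowest in calf 3 among the calves, with the Sertoli hormone AMH at 736 and 483 FPKM in calves 1 and 2 against 0.340 in calf 3, and FSHR, WT1 and GATA4 were listed at 0. All 7 entries for Leydig markers were lowest there, with a summed level of 0.484 FPKM against 1399 and 1137 in the other calves. The 7 markers of oligodendrocytes, astrocytes and neurons were all highest there, with a summed level of 13455 FPKM against 10.1 and 10.2 in the other calves and 5.63 to 8.17 in the bulls. The fits were therefore repeated without that library, and members whose call was then lost or gained are named below. The part of these markers in the results was not tested.

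The groups also differed in markers of germ cells and of Sertoli cells. The summed level of the 7 spermatid markers was 13420 to 15255 FPKM in bulls against 0.810 to 2.61 in calves, and that of the 5 spermatocyte markers was 119 to 147 against 2.91 to 19.0. Among spermatogonial markers, ZBTB16, GFRA1 and UCHL1 were lower in every bull than in any calf, DDX4 was higher, and ID4 overlapped. The Sertoli markers summed to 1831, 1543 and 444 FPKM in calves 1 to 3 and to 266 to 293 in bulls. Of these, CLDN11 and DMRT1 were instead higher in every bull than in calves 1 and 2. In whole tissue, fewer cells of a type and less RNA per cell cannot be told apart, and this holds for each difference below.

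Initiation factors changed in both directions, and members of one complex often did not move together. The genes that rose in bulls were EIF5A, EIF2B4, EIF4G3, EIF1AD, EIF4E1B, PABPC1, EIF1, EIF5, EIF4EBP3, EIF4E and EIF3CL, and those that fell were EIF2S3, EIF2AK2, PABPC4L, EIF2AK3, EIF4EBP2, EIF3F, EIF4E3 and PABPC5. The rise of EIF4E1B lay in an assembled transcript and not in its annotated one, as described below. The falls of EIF4E3 and EIF4EBP2 lay mainly in assembled transcripts too. All 61 genes were above 0 FPKM in every library, and 57 had at least 1 FPKM in every library. For the test, 60 passed the filter of at least 1 FPKM in 3 of the 6 libraries, and PABPC1L did not.

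A gene was called where the log2 fold change of FPKM + 1, bull minus calf, was at least 1 in size and the limma adjusted p (Benjamini-Hochberg over all genes tested) was below 0.05. By that rule, 11 of the 60 members were called higher, or 18.3%, against 35.7 percent of all genes tested. A further 8 were called lower, or 13.3%, against 9.61 percent of all genes. The FPKM of bulls and calves did not overlap in 43 members, or 71.7%, against 67.4 percent of all genes. The median log2 fold change was 0.34 over the members and 0.43 over all genes.

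Without calf 3, the members called higher numbered 10, or 16.7%, against 37.9 percent of all genes. Those called lower numbered 11, or 18.3%, against 13.6 percent. EIF3CL, PABPC1 and EIF4E3 then fell short of the fold limit, EIF4H was called higher, and EIF3L, EIF4B, EIF4EBP1 and PABPC4 were called lower. The remaining 16 called genes were called in the same direction, with log2 fold changes from 1.11 for EIF4E to 2.18 for EIF5A and from -1.01 for PABPC5 to -2.78 for EIF2S3. The median was then 0.30 over the members and 0.43 over all genes.

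The number of calls in each direction depended on the scaling of the libraries. Quantile normalization moved the median log2 fold change of all genes by -0.69, to -0.26, and that of the members to -0.33, so the distance of the members from all genes was -0.09 as deposited and -0.08 after it. On that scale, 2 members were called higher, EIF5A and EIF2B4, or 3.33%, against 21.1 percent of all genes. Lower calls went to 14 members, or 23.3%, among them all 8 of the deposited scale, against 25.1 percent of all genes. The other 9 genes called higher as deposited kept a positive log2 fold change, from 0.28 for EIF4E1B to 0.78 for EIF1AD.

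**Figure D1:**
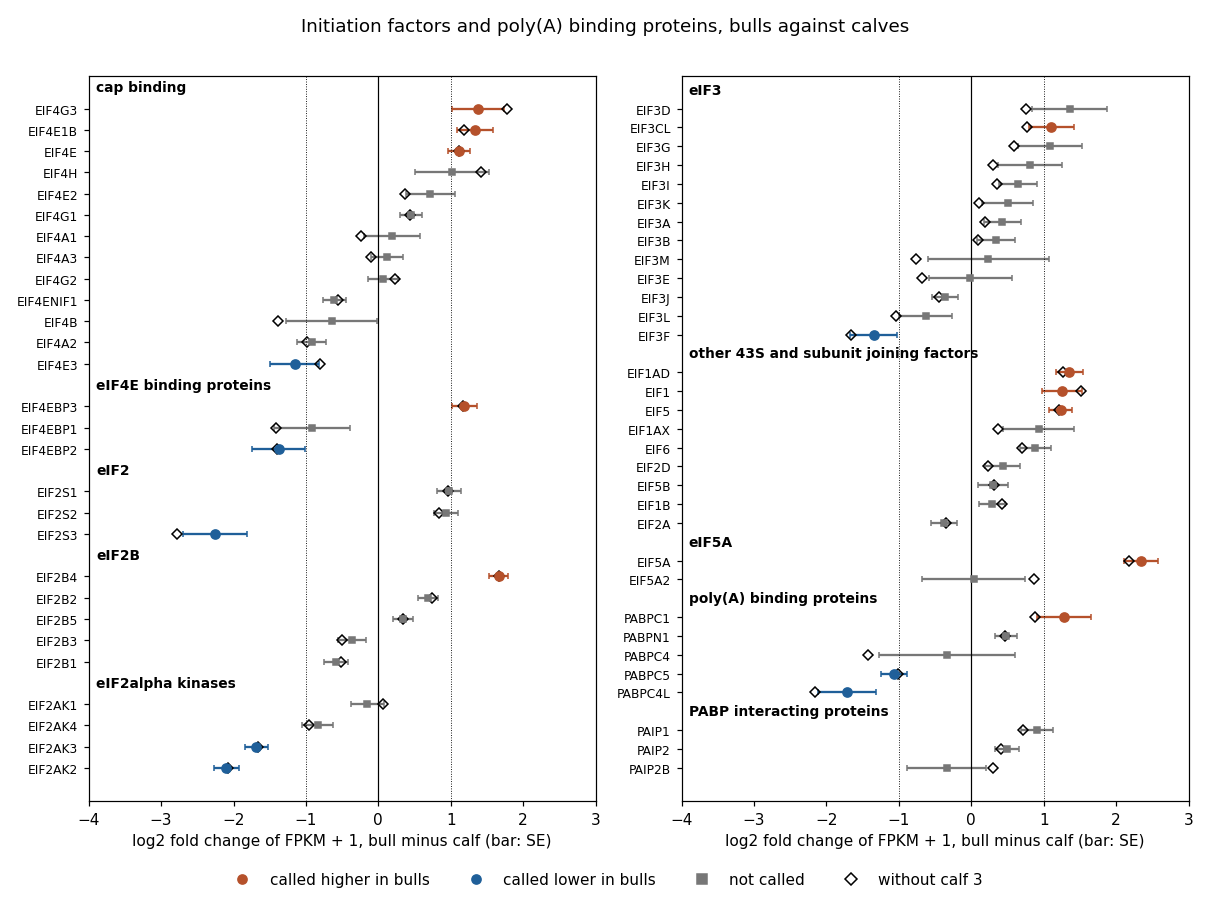
Log2 fold change of FPKM + 1, bull minus calf, for the 60 tested members by role, with bars for the SE, filled circles for genes called and open diamonds for the fit without calf 3. EIF5A lies farthest to the right at 2.35 and EIF2S3 farthest to the left at -2.26, and the diamonds of EIF4B, EIF3M and PABPC4 lie far to the left of their squares.

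Among the factors that bind the cap, the messages for eIF4E itself and for one of 3 scaffolds rose, and the atypical paralog EIF4E3 fell. EIF4E, the cap-binding subunit (chromosome 6, 25667167 to 25705748), stood at 38.1, 47.7 and 41.9 FPKM in calves 1 to 3 and at 89.1, 97.3 and 93.0 in bulls 1 to 3. The groups did not overlap, and the log2 fold change was 1.12 (SE 0.15, limma adjusted p = 0.00134). It was 1.11 without calf 3.

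EIF4E1B, a paralog known from the germ line, was near 0 in calves with 0.217, 0.628 and 0.0401 FPKM and reached 1.46, 2.32 and 3.04 in bulls. An assembled transcript, described below, made up 92.6% to 99.4% of the bull values, and without it the gene was too low to be tested. The groups did not overlap (log2 fold change 1.33, SE 0.25, limma adjusted p = 0.00506), and the added 1 FPKM understates changes at such low levels. EIF4E2, which encodes the cap-binding protein 4EHP of repressor complexes, had 23.2, 25.8 and 11.3 FPKM in calves and 37.1, 33.8 and 25.6 in bulls. Calf 2 was above bull 3, and the gene was not called (0.71, limma adjusted p = 0.121, 0.37 without calf 3, and -0.02 after quantile normalization).

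EIF4E3 (chromosome 22, 29887750 to 30032448) had 4.51, 5.37 and 11.4 FPKM in calves against 2.25, 2.76 and 2.22 in bulls. All bulls were below all calves, but calf 3 was more than the other calves together. The log2 fold change was -1.16 (SE 0.34, limma adjusted p = 0.0277), and without calf 3 it was -0.80 (limma adjusted p = 0.00378) and the gene was not called. The call was also lost without any one bull (limma adjusted p = 0.0692 to 0.0912). Assembled transcripts of the gene summed to 3.62, 4.37 and 7.52 FPKM in calves and 1.58, 0.792 and 1.34 in bulls. Its Ensembl transcripts overlapped between the groups, with 0.891, 0.999 and 3.91 FPKM in calves and 0.674, 1.96 and 0.881 in bulls. In the summed FPKM of the 4 paralogs, EIF4E held 57.7%, 60.0% and 64.8% in calves and 68.6%, 71.4% and 75.1% in bulls, while EIF4E3 went from 6.84%, 6.76% and 17.7% to between 1.73% and 2.02%.

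The scaffold that rose was EIF4G3 (chromosome 2, 131485408 to 131837484), with 14.3, 16.3 and 37.0 FPKM in calves and 51.8, 57.8 and 55.1 in bulls. Its groups did not overlap, with calf 3 between the other calves and the bulls (log2 fold change 1.37, SE 0.36, limma adjusted p = 0.0193, and 1.78 without calf 3). The call was lost without any one library other than calf 3 (limma adjusted p = 0.0538 to 0.0696). EIF4G1, the main scaffold, had 28.3, 35.3 and 29.9 FPKM in calves and 39.8, 43.9 and 45.4 in bulls. Its bulls were all higher, at a log2 fold change of 0.46 (limma adjusted p = 0.0446) that missed the fold limit, and it was -0.32 after quantile normalization.

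EIF4G2, the scaffold known as DAP5 that does not bind eIF4E, had 104, 112 and 151 FPKM in calves and 132, 122 and 125 in bulls. The groups overlapped, and the log2 fold change of 0.07 turned to -0.69 after quantile normalization and to -0.04 under median ratio scaling. Within the family, EIF4G3 made up 9.76%, 9.98% and 17.0% of the summed FPKM in calves and 23.2%, 25.8% and 24.5% in bulls. EIF4G2 made up 70.9%, 68.4% and 69.3% against 58.9%, 54.6% and 55.4%, again with no overlap.

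Of the 5 genes for the helicases and their cofactors, 0 were called by limma with all libraries and 1, EIF4A2, had an unadjusted p below 0.05. EIF4A2 had 283, 239 and 229 FPKM in calves and 125, 149 and 121 in bulls. Its mean over the 3 calves was the highest of the cap-binding group, while over calves 1 and 2 that of EIF4B was higher, at 267 against 261 FPKM. All bulls were lower, at a log2 fold change of -0.92 (limma adjusted p = 0.00824) just short of the fold limit. Its paralogs EIF4A1 and EIF4A3 had log2 fold changes of 0.19 and 0.11, which turned to -0.25 and -0.10 without calf 3 and to -0.52 and -0.63 after quantile normalization. The 3 EIF4A paralogs were grouped by symbol alone. Of their summed FPKM, EIF4A2 held 69.6%, 63.0% and 79.2% in calves and 52.7%, 55.8% and 52.0% in bulls.

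EIF4B and EIF4H, RNA-binding proteins that stimulate the helicase, depended on calf 3. EIF4B had 268, 266 and 56.3 FPKM in calves and 109.7, 99.8 and 95.5 in bulls, so calf 3 alone lay below the bulls, and the log2 fold change moved from -0.65 (limma adjusted p = 0.418) to -1.39 (limma adjusted p = 5.72e-05) without it. EIF4H had 16.3, 48.8 and 67.1 FPKM in calves and 83.1, 73.7 and 76.3 in bulls. The calves differed more among themselves than the group means did, and the log2 fold change was 1.02 (limma adjusted p = 0.138) with calf 3 and 1.42 (limma adjusted p = 0.0198) without it. EIF4ENIF1, which carries eIF4E into the nucleus, had 5.98 to 6.99 FPKM in calves and 3.59 to 4.13 in bulls and missed the fold limit at -0.61.

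The 3 eIF4E binding proteins went separate ways. EIF4EBP3 (chromosome 7, 51722071 to 51724000) had 3.07, 2.499 and 2.66 FPKM in calves and 7.12, 6.81 and 8.75 in bulls, with a log2 fold change of 1.19 (SE 0.18, limma adjusted p = 0.00192). EIF4EBP2 (chromosome 28, 26606343 to 26633607) had 16.3, 15.8 and 15.3 FPKM in calves and 7.92, 7.33 and 2.66 in bulls, a log2 fold change of -1.37 (SE 0.37, limma adjusted p = 0.0199). That call was lost without calf 1 (limma adjusted p = 0.0567), calf 2 (0.0541) or bull 3 (log2 fold change -0.96). In both genes the groups were apart, and bull 3 was the most extreme bull in each.

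EIF4EBP1, the member best known as a target of mTOR, had 20.9, 11.7 and 4.85 FPKM in calves and 6.56, 3.27 and 6.59 in bulls. Calf 3 lay among the bulls, and the gene was called lower only without it (-1.41, limma adjusted p = 0.00986, against -0.91 and 0.189 with it). As a result, EIF4EBP3 held 7.62%, 8.33% and 11.7% of the summed FPKM of the 3 genes in calves and 32.9%, 39.1% and 48.6% in bulls. The sum itself was 40.3, 29.997 and 22.8 FPKM in calves and 21.6, 17.4 and 18.0 in bulls.

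**Figure D2:**
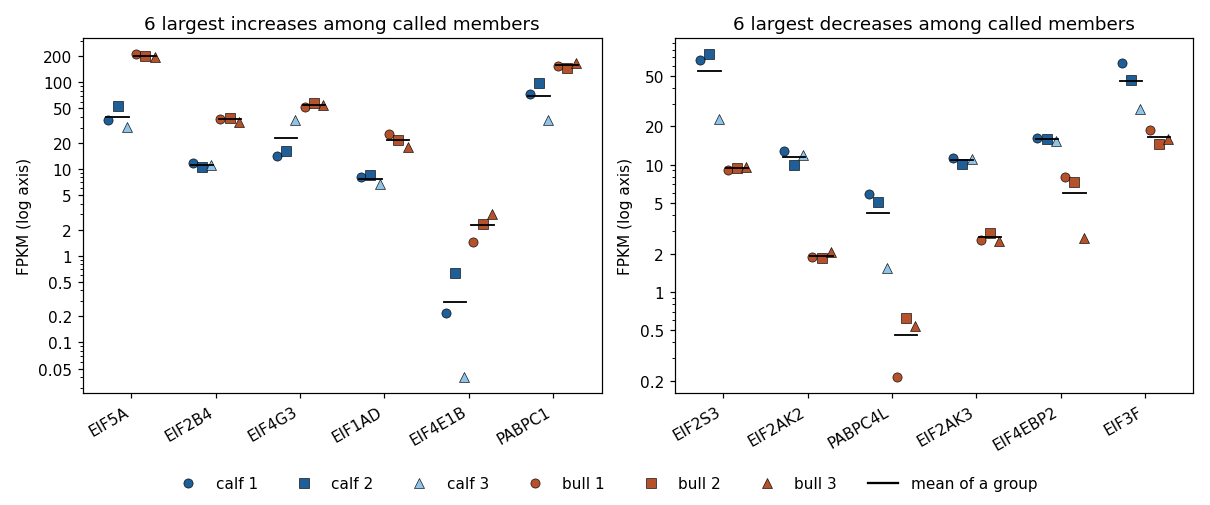
FPKM on a log axis in each library for the 6 called members with the largest increase and the 6 with the largest decrease, with a line at the mean of each group. In all 12 genes the bulls lie on one side of all calves, and calf 3 is the calf nearest to the bulls in EIF4G3, EIF2S3, PABPC4L, EIF4EBP2 and EIF3F.

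The subunits of eIF2 parted, with the gamma subunit falling while the other subunits were higher in every bull. EIF2S3, which encodes the GTP-binding gamma subunit (chromosome X, 119205686 to 119220743), had 66.2, 74.0 and 23.0 FPKM in calves and 9.08, 9.47 and 9.51 in bulls. The bulls were nearly equal, and calf 3 lay between them and the other calves. The log2 fold change was -2.26 (SE 0.45, limma adjusted p = 0.00625), and -2.78 without calf 3.

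EIF2S1, the alpha subunit that the kinases phosphorylate, had 24.7, 21.7 and 22.4 FPKM in calves and 42.0, 55.1 and 41.9 in bulls. EIF2S2, the beta subunit, had 32.0, 35.5 and 27.6 against 65.2, 63.9 and 55.3. Both were higher in all bulls and just missed the fold limit, with log2 fold changes of 0.97 (limma adjusted p = 0.00356) and 0.94 (limma adjusted p = 0.00361), and both stayed positive after quantile normalization (0.20 and 0.16). The ratio of EIF2S3 to EIF2S1, chosen after the values were seen, went from 2.67, 3.41 and 1.03 in calves to 0.216, 0.172 and 0.227 in bulls.

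Of the 3 members on chromosome X, EIF2S3 and PABPC5 fell and EIF1AX did not. EIF1AX, which encodes the scanning factor eIF1A, had 133, 154 and 43.3 FPKM in calves and 183, 200.2 and 170.4 in bulls. It was highest in the bulls, with a log2 fold change of 0.93 (limma adjusted p = 0.158) that was 0.36 without calf 3.

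In the exchange factor eIF2B, the delta subunit was called higher. EIF2B4 (chromosome 11, 72292597 to 72297447) had 11.6, 10.6 and 11.2 FPKM in calves and 38.2, 38.8 and 35.1 in bulls, a log2 fold change of 1.66 (SE 0.13, limma adjusted p = 0.000141). The calves, calf 3 included, were within 1 FPKM of each other. EIF2B2 was also higher in every bull, with 10.6 to 11.96 FPKM in calves and 17.8 to 18.7 in bulls, at a log2 fold change of 0.69 (limma adjusted p = 0.00631) below the fold limit. EIF2B5 was at 0.34, and at -0.17 after quantile normalization, and EIF2B3 and EIF2B1 were at -0.36 and -0.59. The ratio of EIF2B4 to EIF2B1, also chosen after the values were seen, was 1.96, 1.58 and 1.48 in calves and 9.77, 9.50 and 7.94 in bulls.

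Messages for 2 of the 4 eIF2alpha kinases fell. EIF2AK2, which encodes the kinase PKR that responds to double-stranded RNA (chromosome 11, 19556770 to 19609116), had 12.7, 9.92 and 11.98 FPKM in calves and 1.88, 1.84 and 2.04 in bulls, a log2 fold change of -2.10 (SE 0.17, limma adjusted p = 0.000154). EIF2AK3, which encodes PERK of the endoplasmic reticulum (chromosome 11, 47433953 to 47515738), had 11.2, 10.1 and 11.1 FPKM in calves and 2.58, 2.92 and 2.53 in bulls, a log2 fold change of -1.68 (SE 0.16, limma adjusted p = 0.000256). In both, the spread within a group was small against the distance between groups, and calf 3 lay between the other calves.

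EIF2AK4, which encodes the amino acid sensor GCN2, had 13.5, 19.4 and 12.3 FPKM in calves and 7.08, 8.89 and 7.58 in bulls. Its groups did not overlap, and its log2 fold change of -0.84 (limma adjusted p = 0.0176) missed the fold limit. EIF2AK1, the heme-regulated kinase HRI, had 8.002, 8.92 and 13.7 FPKM in calves and 8.56, 9.42 and 8.61 in bulls. The groups overlapped, and the log2 fold change of -0.15 turned to 0.06 without calf 3. The EIF2AK1 locus is overlapped by ANKRD61, which had 0.256 to 0.350 FPKM in calves and 30.7 to 38.9 in bulls. Whether reads were shared between the 2 genes was not tested. The summed FPKM of the 4 kinases was 45.4 to 49.0 in calves and 20.1 to 23.1 in bulls.

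The 13 genes of eIF3, the large complex that holds the small subunit and the mRNA together, ranged from -1.35 to 1.36 in log2 fold change. EIF3F (chromosome 15, 44532808 to 44541048) fell, with 63.3, 45.9 and 27.4 FPKM in calves and 18.7, 14.6 and 15.7 in bulls (log2 fold change -1.35, SE 0.32, limma adjusted p = 0.0125, and -1.67 without calf 3). The call was lost without bull 2 (limma adjusted p = 0.0535) or bull 3 (0.0504). It was the lowest of the 13 in every bull and in no calf. The highest over the lowest subunit within a library was 8.88, 5.53 and 3.22 times in calves and 8.79, 11.1 and 9.79 times in bulls.

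EIF3CL (chromosome 25, 26008727 to 26028899) had 78.1, 76.1 and 37.9 FPKM in calves and 136, 127 and 134 in bulls. The groups were apart, at a log2 fold change of 1.10 (SE 0.31, limma adjusted p = 0.024). It was 0.77 (limma adjusted p = 0.000394) without calf 3, and the call was lost there and without any one bull (limma adjusted p = 0.0711 to 0.0809). EIF3D was not called at 1.36 (limma adjusted p = 0.0673), nor at 0.76 (limma adjusted p = 0.00216) without calf 3. EIF3E, the highest subunit in calves, had 234, 193 and 52.6 FPKM in calves and 144, 121 and 132 in bulls, with a log2 fold change of -0.02 that was -0.68 without calf 3.

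EIF3L was called lower only without calf 3 (-1.04, limma adjusted p = 0.00016), with 38.6, 41.9 and 16.3 FPKM in calves and 19.6, 18.7 and 18.6 in bulls. For EIF3M the log2 fold change changed sign, from 0.24 with calf 3 to -0.77 (limma adjusted p = 0.00138) without it and -0.35 after quantile normalization. EIF3A, EIF3B, EIF3I and EIF3K were not called, at 0.34 to 0.64 (0.10 to 0.36 without calf 3), and turned negative after quantile normalization. Calf 3 was low across the complex, where the summed FPKM of the subunits was 379 in calf 3 against 1077 and 1057 in the other calves and 1027 to 1127 in bulls.

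**Figure D3:**
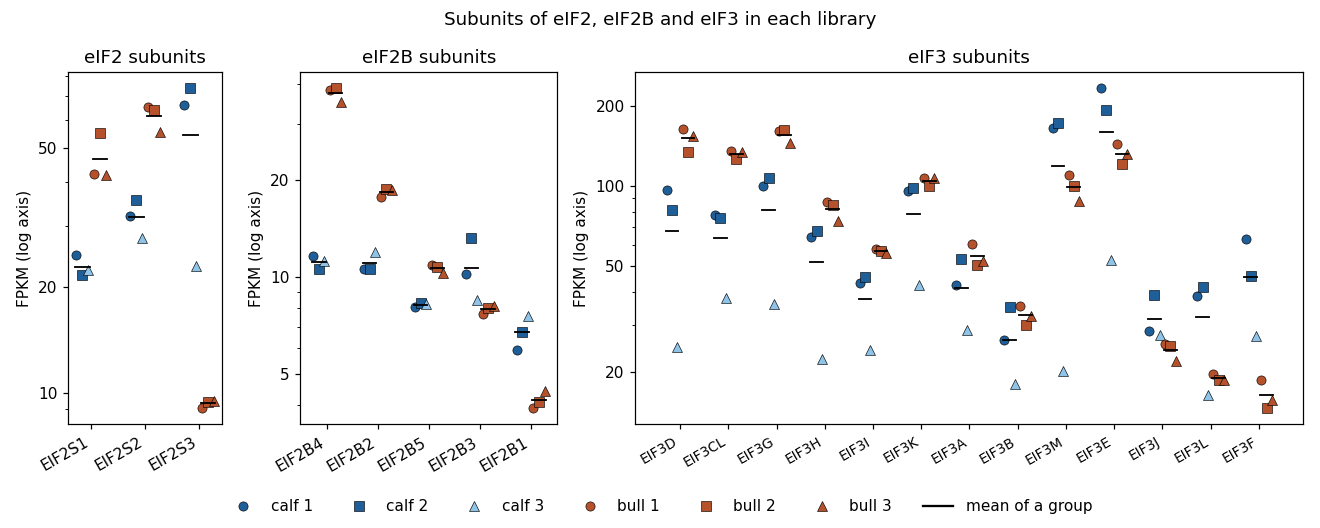
FPKM on a log axis in each library for the subunits of eIF2, eIF2B and eIF3, ordered by log2 fold change, with a line at the mean of each group. EIF2S3 lies below 10 FPKM in all bulls while EIF2S1 and EIF2S2 lie above 40, EIF2B4 lies at 35.1 to 38.8 FPKM in bulls, above every other eIF2B subunit, and calf 3 is the lowest calf in all 13 eIF3 subunits.

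Among the other factors of the small subunit and of subunit joining, 3 of 9 were called higher and 0 lower, a share near that of all genes called higher. EIF1AD, a protein with an eIF1A domain (chromosome 29, 44090468 to 44093581), had 8.08, 8.43 and 6.79 FPKM in calves and 25.5, 21.3 and 17.9 in bulls (log2 fold change 1.35, SE 0.19, limma adjusted p = 0.00135). EIF1, which guards the choice of start codon, was called with a log2 fold change of 1.26 (SE 0.28, limma adjusted p = 0.010005) and was the third highest member in bulls at 166 to 182 FPKM. EIF5, which triggers GTP hydrolysis on eIF2, was called at 1.23 (SE 0.16, limma adjusted p = 0.00114). The ratio of EIF1 to its paralog EIF1B was 2.73 to 3.65 in calves and 5.87 to 6.38 in bulls.

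The remaining members of that group, EIF1AX, EIF6, EIF2D, EIF5B, EIF1B and EIF2A, were not called and lay between -0.38 and 0.93. EIF6, which keeps the ribosomal subunits apart, was higher in every bull at 0.89 (limma adjusted p = 0.0141). EIF2D, EIF5B and EIF1B turned negative after quantile normalization.

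EIF5A showed the largest increase of all members and became the highest of them in bulls. It encodes a factor, modified with hypusine, that acts in elongation and termination as well (chromosome 19, 27014948 to 27020485). Its level was 36.5, 53.2 and 30.8 FPKM in calves and 212, 203 and 194 in bulls, so the bull mean was 5.06 times the calf mean. The log2 fold change was 2.35 (SE 0.23, limma adjusted p = 0.000348), and 2.18 without calf 3. Its paralog EIF5A2 had 4.76, 6.36 and 35.5 FPKM in calves and 13.6, 10.8 and 8.68 in bulls. Calf 3 was above all other libraries, and the log2 fold change of 0.03 was 0.86 (limma adjusted p = 0.0103) without it, short of the fold limit, and -0.51 after quantile normalization.

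The cytoplasmic PABPs shifted toward PABPC1. PABPC1, the main cytoplasmic form (chromosome 14, 63625556 to 63643551), had 73.2, 97.2 and 36.3 FPKM in calves and 155, 146 and 169 in bulls. The groups did not overlap, with a log2 fold change of 1.28 (SE 0.37, limma adjusted p = 0.0275). Without calf 3 it was 0.88 (limma adjusted p = 0.00187), below the fold limit. The call was also lost without calf 1 (limma adjusted p = 0.0519) or any one bull (0.0756 to 0.0924).

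PABPC4, first found in activated T cells, had 82.8, 158 and 10.7 FPKM in calves and 39.3, 45.1 and 41.5 in bulls. Calves 1 and 2 were above all bulls and calf 3 was below them. The log2 fold change was -0.33 (limma adjusted p = 0.784) with calf 3 and -1.43 (limma adjusted p = 0.00297) without it. In the summed FPKM of the 5 PABPC genes, PABPC4 held 50.2% and 59.9% in calves 1 and 2, 20.6% in calf 3 and 20.0%, 23.4% and 19.6% in bulls. PABPC1 held 44.4%, 36.7% and 69.5% in calves and 79.0%, 75.8% and 79.7% in bulls, while the sum itself overlapped between groups, at 165, 265 and 52.2 FPKM against 196, 193 and 211.

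PABPC4L and PABPC5, both at low levels, fell. PABPC4L (chromosome 17, 24091849 to 24092961) had 5.87, 5.12 and 1.55 FPKM in calves and 0.214, 0.624 and 0.536 in bulls (log2 fold change -1.72, SE 0.40, limma adjusted p = 0.0124, and -2.16 without calf 3), and the call was lost without bull 1 (limma adjusted p = 0.0537). PABPC5 (chromosome X, 39334412 to 39339608) had 2.81, 3.32 and 3.63 FPKM in calves and 1.45, 0.833 and 0.837 in bulls (-1.07, SE 0.18, limma adjusted p = 0.00336). The groups were apart in both genes. PABPC1L, an oocyte form, was at 0.323, 0.639 and 0.0219 FPKM in calves and 0.267, 0.147 and 0.0628 in bulls and was too low to be tested.

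The nuclear PABPN1, which controls the length of the tail as it is made, had 15.9, 14.1 and 14.5 FPKM in calves and 19.9, 19.8 and 23.7 in bulls. It was higher in all bulls at 0.48 (limma adjusted p = 0.0344), below the fold limit, and -0.17 after quantile normalization. PAIP1, which links PABP to the helicase and stimulates translation, had 39.5, 43.8 and 27.8 FPKM in calves and 76.4, 71.0 and 60.9 in bulls. Its groups did not overlap, and its log2 fold change of 0.91 (limma adjusted p = 0.0135) missed the fold limit.

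PAIP2, which displaces PABP from the tail, had 104, 106 and 88.4 FPKM in calves and 136, 149.6 and 132 in bulls. All bulls were higher, at 0.49 (limma adjusted p = 0.048), which was -0.21 after quantile normalization. Its paralog PAIP2B had 4.52, 5.38 and 21.6 FPKM in calves and 6.20, 6.66 and 6.09 in bulls. Calf 3 was above every other library, and the log2 fold change of -0.34 was 0.30 without it.

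**Figure D4:**
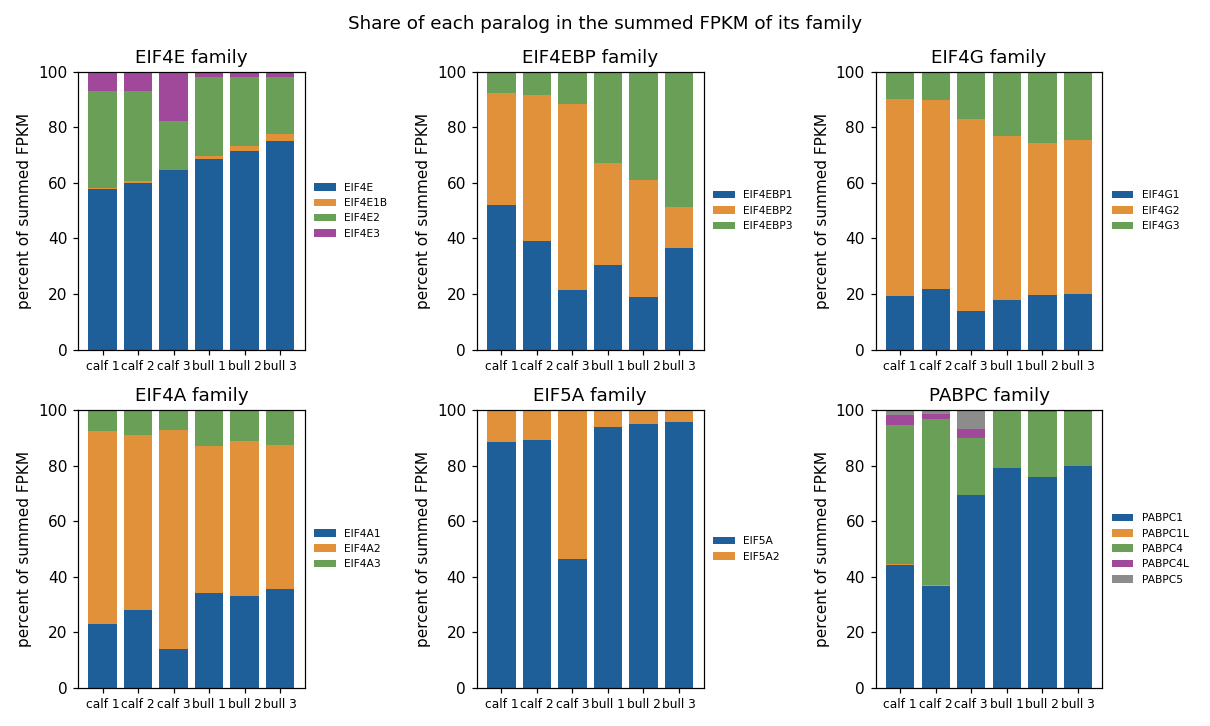
Percent of the summed FPKM of 6 paralog families held by each member in each library. EIF4EBP3, EIF4G3 and EIF4E have a larger share in every bull than in any calf, and in the PABPC family calf 3, with PABPC1 at 69.5%, lies nearer to the bulls than to the other calves.

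The transcript table showed which entries carried these gene values, since the gene FPKM of all 61 members equalled the sum over their transcripts (tolerance 0.001). Of 93 member transcripts tested, 22 were called higher, or 23.7%, against 34.8 percent of all transcripts, and 10 lower, or 10.8%, against 9.37 percent. Without calf 3 these were 22, or 23.7%, against 36.1 percent and 14, or 15.1%, against 13.1 percent. The entries comprised 108 Ensembl transcripts, 31 transcripts assembled by the authors, 14 assembled ones in 7 genes with names that end in AS, as antisense RNAs are named, and 4 assembled ones in 4 genes with names that end in OT, as overlapping transcripts are named. The libraries were strand-specific, but the use of strand in the counting was not given in the sources used here, so reads of a gene and of its antisense partner may not be separated.

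Both EIF5A transcripts rose, but not equally. EIF5A-201 was the main form and had a log2 fold change of 2.07 (limma adjusted p = 0.000736). EIF5A-202 was nearly silent in calves with 0.0667, 0.374 and 0.772 FPKM and reached 41.8, 37.2 and 33.8 in bulls, a log2 fold change of 4.81 (limma adjusted p = 3.3e-05). That was the largest difference of any member transcript.

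EIF2A, which encodes an initiator tRNA carrier separate from eIF2, looked little changed as a gene, with 11.4, 12.4 and 12.7 FPKM in calves and 8.55, 11.2 and 7.93 in bulls (log2 fold change -0.38, limma adjusted p = 0.119). Its assembled transcript EIF2A-OT1 rose from 0.0893, 0.0857 and 0.260 FPKM in calves to 3.74, 6.10 and 3.01 in bulls (2.17, limma adjusted p = 0.00065) and made up 43.7%, 54.7% and 37.9% of the gene value in bulls. When AS and OT transcripts were taken out of all gene values, an alternative chosen after the values were seen, EIF2A had 11.1, 12.2 and 12.1 FPKM in calves and 4.49, 4.77 and 4.92 in bulls. The groups were then far apart and the gene was called lower (-1.16, SE 0.14, limma adjusted p = 0.000872). The EIF2A locus overlaps SERP1, whose level was 27.3 to 36.0 FPKM in calves and 60.5 to 75.0 in bulls. SERP1 lies at 117598268 to 117614900 and does not reach EIF2A-OT1, at 117554823 to 117557399.

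EIF4E2 had 4 transcripts with antisense names, all listed at 0 in the 3 calves, whose sum was 12.7, 13.4 and 7.52 FPKM in bulls, or 34.3%, 39.8% and 29.4% of the gene value. EIF4E2-AS1, EIF4E2-AS2 and EIF4E2-AS4 were called higher. Without them, EIF4E2 had 23.2, 25.8 and 11.3 FPKM in calves and 24.4, 20.4 and 18.1 in bulls. The groups overlapped, and the log2 fold change went from 0.71 to 0.12. The 5 antisense-named transcripts of EIF4G3 were likewise listed at 0 in all calves and summed to 3.40, 4.23 and 2.28 FPKM in bulls, but EIF4G3 without them was still called higher (1.28, limma adjusted p = 0.0246), and so were 2 of its Ensembl forms.

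The increase of EIF4E1B lay in an assembled transcript. EIF4E1B-OT1 had 0.189 and 0.628 FPKM in calves 1 and 2, was listed at 0 in calf 3, and had 1.35, 2.21 and 3.03 in bulls, which was 92.6% to 99.4% of the gene value there. The Ensembl transcript EIF4E1B-201 did not exceed 0.114 FPKM in any library. The call of the gene was thus that of the assembled transcript.

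PABPN1 held a shift between transcripts. PABPN1-201 had 7.58, 8.29 and 8.46 FPKM in calves and 18.5, 16.5 and 20.9 in bulls (1.10, limma adjusted p = 0.00185), while an assembled transcript of the gene fell from 8.12, 5.68 and 5.85 to 1.09, 3.097 and 2.54 (-1.26, limma adjusted p = 0.0166). The Ensembl forms thus went from 49.0%, 59.8% and 59.5% of the gene value to 94.5%, 84.3% and 89.3%. The assembled transcripts also made up nearly all of EIF4EBP2, at 97.3% to 98.4% in calves and 86.8% to 97.8% in bulls. In EIF2S1 the call of EIF2S1-201 (2.72, limma adjusted p = 0.0267) came with 42.0, 10.5 and 11.99 FPKM in bulls against 0.273 to 5.76 in calves, a spread within bulls that the gene value did not have.

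**Figure D5:**
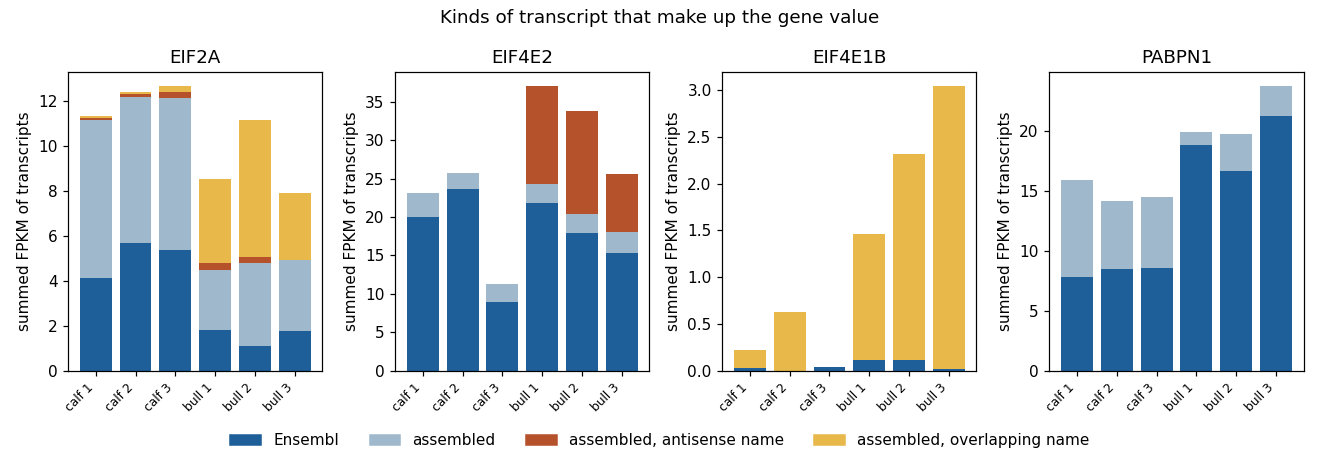
Summed FPKM by kind of transcript in each library for EIF2A, EIF4E2, EIF4E1B and PABPN1. The antisense-named part of EIF4E2 and most of the overlapping-named part of EIF2A are seen in the bulls only, and the Ensembl part of PABPN1 is larger in every bull than in any calf.

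Reads could also be shared with other genes. At their deposited positions, 13 members overlapped another entry with a gene symbol, among them the called genes EIF1AD, EIF2AK2, EIF2B4 and EIF4E3. The neighbour of EIF2B4, SNX17, had 19.0 to 24.9 FPKM in calves and 23.5 to 24.8 in bulls. That of EIF2AK2, GPATCH11, had 6.48 to 6.98 and 19.2 to 22.1. GPR27, which overlaps EIF4E3, was lower in bulls as EIF4E3 was, with 3.43 to 4.70 FPKM in calves and 1.03 to 1.92 in bulls. BANF1, which overlaps EIF1AD, had 29.4 to 82.3 FPKM in calves and 46.7 to 58.8 in bulls. Sharing of reads was not tested. PABPC1, EIF1, EIF4A1 and EIF3CL belong to genes with near-identical copies elsewhere in mammalian genomes, and how such reads were assigned was not given in the sources used here.

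Other genes of the pathway were read in lists drawn up by function. Of all genes tested, 35.7 percent were called higher and 9.61 percent lower, or 37.9 and 13.6 percent without calf 3. Of 14 cap and kinase partners, 3 were called higher and 2 lower (3 and 3 without calf 3). MTOR, the kinase that controls the eIF4E binding proteins, had the largest called increase at 1.30, and RPS6KB2, an S6 kinase, the largest called decrease at -1.66. Without calf 3, RPS6KB2 was at -1.39 and the helicase DDX3X was lower at -1.47, and PDCD4, an inhibitor of eIF4A, joined the lower calls. Of 19 tested partners of the poly(A) tail, 5 were called higher and 1 lower (4 and 1 without calf 3). PAPOLB, the poly(A) polymerase of the testis, went from 3.29, 3.12 and 6.95 FPKM in calves to 91.6, 103 and 97.1 in bulls, a log2 fold change of 4.24 (limma adjusted p = 7.24e-05), and BTG2, which promotes deadenylation, had the largest called decrease at -1.25. Without calf 3, BTG2 was at -0.89 and was not called, and the lower call was that of the deadenylase CNOT6L (-1.02).

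In the eIF2 pathway list of 7 genes, NCK1 was called higher at 1.89 and PPP1R15B, a phosphatase subunit that reverses the kinases, lower at -1.13, both by limma with all libraries. Without calf 3, PPP1R15B was at -0.98 and was not called, and ATF4, a transcription factor made when eIF2 is phosphorylated, was called lower (-1.13, limma adjusted p = 0.00183). Among 8 tested entries for other initiation genes, 2 were called in each direction (1 and 2 without calf 3), with the chaperonin subunit TCP1 at 1.34 and the reinitiation factor MCTS1 at -2.16 as the extremes. Of 12 elongation genes and 3 termination genes, 0 were called by limma with all libraries, with 3 and 1 at an unadjusted p below 0.05, and without calf 3 EEF1B2, EEF2 and EEF1A1 were called lower.

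In the list of germ cell regulators of specific mRNAs, 6 of 18 tested were called higher and 2 lower (9 and 2 without calf 3). YBX2, which packages stored mRNA in germ cells, stood at 0.406, 0.436 and 0.0593 FPKM in calves and 355, 304 and 362 in bulls. Its log2 fold change of 8.05 (limma adjusted p = 2.79e-06) compared with 2.35 for EIF5A, the largest among the initiation factors. FMR1 had the largest called decrease at -2.33. The shares of all genes called, given above, apply to these lists as well. After quantile normalization, MTOR (0.69) and TCP1 (0.61) were not called, while PAPOLB, NCK1 and YBX2 were still called higher.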

How the data were processed

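Total testis RNA of 3 calves and 3 bulls was sequenced by the authors, 1 library per animal, so n counts animals. According to the Methods, reads were filtered, ribosomal RNA reads removed with Bowtie2, and the rest mapped with TopHat2 and assembled with StringTie. The authors deposited FPKM values of genes and transcripts, one column per library, without counts. For circular RNAs, the Methods name Cuffdiff and edgeR, and the paper's Results name Cuffdiff and Ballgown. Which tool gave the gene values was not given in the sources used here. All value columns were used. Positions follow the tables, whose scaffold names belong to an ARS-UCD assembly although the Methods name UMD3.1.1, and all 61 symbols were matched to RefSeq.

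Values were analysed as log2(FPKM + 1) in R 4.3.3 with limma 3.58.1 (linear model of group, empirical Bayes trend, two-sided), keeping features that reached 1 FPKM in 3 or more of the 6 libraries. The Benjamini-Hochberg adjustment covered every feature kept, and calls were made at adjusted p below 0.05 with a log2 fold change of 1 or more in either direction. Simulated data used a spread derived from the bulls for both groups, and changes were placed only in features with a mean log2 value above 2. There, 192 of 200 changed genes (log2 change of 2) were recovered among 16806, with 2 unchanged ones called. For transcripts it was 194 of 200 among 20871, with 11. The spread of the calves, calf 3 included, was not simulated, so these rates do not describe the comparison made here. The 14 alternatives fixed first varied the pseudocount, filter, scaling, library weights, replicate block, fold limit and libraries, and 1 was added later.

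The members and lists were chosen with earlier results of these data known. By the rule for naming, every called member was named, with values in every library for the 6 largest changes each way and for all PABPC, PABPN, PAIP, EIF4E, EIF4G and EIF4EBP genes. Others were given by role, with the highest member and those whose call changed without calf 3. Further members were named after their values were seen. Shares and ratios are descriptions. Figures were drawn with matplotlib 3.10.9.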

Additional observations from a re-analysis of the deposited data

How the results depend on the processing

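Under 14 alternatives fixed first and 1 chosen after the data were seen, no called member turned its direction where it was tested, and EIF2AK2, EIF2AK3, EIF2S3, EIF2B4 and EIF5A kept their call under all 15. With no minimum fold change, 31 members were called in place of 19, of which 19 were higher. Quantile normalization gave 2 higher and 14 lower, a median log2 fold change of -0.33 over the members, and 7 higher and 20 lower transcripts. A floor of 1 FPKM in all libraries left fewer entries to test, with 17 transcripts called, 12 higher and 5 lower, and it removed EIF4E1B, PABPC4L and PABPC5 from the test. With no minimum fold change, 17 transcripts were called lower. Leaving out one library at a time gave 5 to 11 lower members and 6 to 14 lower transcripts, with the lowest number of members without bull 3. For most of these settings the share called over all genes or transcripts was not computed. The counts therefore do not show whether the members differed from other genes.

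The members that turned were all uncalled, and the cause was not tested. After quantile normalization, the log2 fold changes were -0.52 for EIF4A1, -0.63 for EIF4A3, -0.0205 for EIF4E2, -0.32 for EIF4G1, -0.69 for EIF4G2, -0.17 for EIF2B5, -0.36 for EIF3A, -0.40 for EIF3B, -0.13 for EIF3I, -0.21 for EIF3K, -0.35 for EIF3M, -0.44 for EIF1B, -0.082 for EIF2D, -0.21 for EIF5B, -0.51 for EIF5A2, -0.17 for PABPN1 and -0.21 for PAIP2. Median ratio scaling gave -0.0405 for EIF4G2 and -0.063 for EIF5A2. Array weights gave -0.21 for EIF4A1, -0.085 for EIF4A3, 0.058 for EIF2AK1, -0.71 for EIF3M and 0.27 for PAIP2B. Leaving out one library at a time gave -0.25 to 0.45 for EIF4A1, -0.10 to 0.27 for EIF4A3, -0.0406 to 0.23 for EIF4G2, -0.29 to 0.060 for EIF2AK1, -0.68 to 0.38 for EIF3E, -0.77 to 0.75 for EIF3M, -0.47 to 0.86 for EIF5A2, -1.43 to 0.45 for PABPC4 and -0.72 to 0.30 for PAIP2B.

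Deviations of libraries with the same replicate number correlated at 0.028, 0.025 and 0.034, and every library correlated best with its own number. Values this small, from 3 animals a group, cannot decide whether the numbers mark a pairing or a shared batch. With the replicate block, 18 members were called, PABPC1 not among them. The tables hold no counts, so depth limits could not be computed, and with 3 animals a group a difference that missed the threshold is not shown to be absent.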
